A study of Mus musculus with 6 samples.

Results

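A set of 40 genes that cells switch on to copy their DNA and to divide was followed in mouse melanomas with knockdown of Sqle. The set holds 22 replication genes and 18 mitosis genes, chosen by gene symbol from the 55349 genes of the count table, and all 40 passed the filter on low counts. The study sequenced 6 RNA libraries of tumours grown under the skin from B16F10, a mouse melanoma line that makes pigment. Of these libraries, 3 are labelled shSQLE with the genotype SQLE knockdown (replicates 1, 2 and 5) and 3 are labelled shControl with the genotype WT (replicates 1, 4 and 5). No treatment was given to either group. The hairpin sequences, whether each line is a clone, and the strain, age and sex of the hosts are not stated in the labels or protocols used here. The series asks how the tumour transcriptome differs when Sqle, which encodes squalene epoxidase of the cholesterol pathway, is knocked down.

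DNA replication starts with licensing, when ORC, CDC6 and CDT1 load the MCM helicase on DNA in G1. CDC45, GINS and MCM10 then turn the helicase on at the start of S phase, and polymerases, the PCNA clamp and nucleotide enzymes carry the fork. E2F factors drive many of these genes late in G1. Mitosis genes are switched on later, in G2, through promoters that often carry a CCAAT box, bound by NF-Y, and a CHR element, bound by the MuvB complexes with B-MYB and FOXM1. Cyclin B with CDK1, the Aurora and Polo kinases, the spindle motors and the checkpoint proteins then carry the cell through division. In bulk tumour RNA these genes are widely read as a sign of proliferation, in tumour and host cells alike.

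Promoters of the 6 genes with the smallest p in the 2 classes are printed to show the promoter letters of replication genes (Mcm2, Cdt1, Mcm5) and mitosis genes (Bub1b, Cenpf, Plk1). The sequences are from RefSeq (build GRCm38.p6) and run 5′ to 3′ on the gene's strand for 200 bases up to the start. Capitals mark the E2F core in either form, written TTCCCGC in one of them and TTGGCGC in the other. They also mark the CCAAT box, whose letters are its name, and the CHR, written TTTGAA. All were searched on both strands, so some capitals are the reverse complement of these letters, and an E2F core can share letters with a CCAAT box. Mcm2 lies at chr6:88898781-88898980 on the minus strand, Cdt1 at chr8:122567815-122568014 and Mcm5 at chr8:75109309-75109508 on the plus strand. Bub1b lies at chr2:118598011-118598210 on the plus strand, Cenpf at chr1:189688087-189688286 on the minus strand and Plk1 at chr7:122159235-122159434 on the plus strand.
Mcm2: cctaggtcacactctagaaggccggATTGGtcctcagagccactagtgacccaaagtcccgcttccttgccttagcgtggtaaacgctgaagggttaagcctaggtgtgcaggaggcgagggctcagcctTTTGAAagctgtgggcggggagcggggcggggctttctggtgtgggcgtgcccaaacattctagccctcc
Cdt1: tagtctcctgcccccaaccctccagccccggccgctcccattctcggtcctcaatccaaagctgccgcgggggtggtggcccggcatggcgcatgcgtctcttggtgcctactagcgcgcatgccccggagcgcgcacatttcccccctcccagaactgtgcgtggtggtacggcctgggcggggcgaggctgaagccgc
Mcm5: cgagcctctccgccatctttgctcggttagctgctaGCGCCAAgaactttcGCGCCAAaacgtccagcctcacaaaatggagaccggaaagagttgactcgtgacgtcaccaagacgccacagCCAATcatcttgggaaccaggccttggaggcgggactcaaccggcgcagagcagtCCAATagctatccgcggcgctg
Bub1b: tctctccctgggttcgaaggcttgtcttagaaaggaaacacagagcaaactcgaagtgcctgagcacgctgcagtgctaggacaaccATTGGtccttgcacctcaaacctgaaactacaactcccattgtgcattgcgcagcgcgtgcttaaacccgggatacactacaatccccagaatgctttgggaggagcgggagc
Cenpf: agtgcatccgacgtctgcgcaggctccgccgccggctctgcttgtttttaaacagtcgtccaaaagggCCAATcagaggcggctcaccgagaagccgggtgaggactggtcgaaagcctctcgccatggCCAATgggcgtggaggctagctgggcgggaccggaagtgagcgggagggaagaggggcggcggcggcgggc
Plk1: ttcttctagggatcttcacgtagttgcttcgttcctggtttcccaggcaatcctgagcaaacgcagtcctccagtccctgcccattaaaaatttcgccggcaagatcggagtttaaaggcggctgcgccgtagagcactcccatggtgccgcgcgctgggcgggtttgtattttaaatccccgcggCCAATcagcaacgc

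Several motifs of these genes lie just past the start, where the first transcribed base is counted as 1. The short stretches below hold them, with Cdt1 at chr8:122568032-122568055, Mcm5 at chr8:75109509-75109528, Bub1b at chr2:118598242-118598260, Cenpf at chr1:189688070-189688086 and Plk1 at chr7:122159456-122159479. The replication gene Cdt1 has E2F cores at bases 19 and 34, and the 3 mitosis genes each have a CHR there, at base 41 in Bub1b, base 3 in Cenpf and base 31 in Plk1.
Cdt1: cGCGGGAActacctttTTGGCGCc
Mcm5: aacgaaCCAATaggagcgca
Bub1b: gacgttaaaTTTGAAactt
Cenpf: agTTTGAAtcgctcgtg
Plk1: agcgccgcgTTTGAAttcggggag

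In windows of 250 bases before to 50 after the start, the promoter table held 33 of the 40 genes, 19 for replication and 14 for mitosis. Kif20a, Tpx2, Ccna2, Mcm4, Ccne2, Gins2 and Aurkb were without an entry. An E2F core stood in 10 of 19 replication promoters (52.6%) and in 3 of 14 mitosis promoters (21.4%), against 14.1% of the 10131 tested genes with a promoter. Windows with a CHR were 3 of 19 for replication (15.8%) and 10 of 14 for mitosis (71.4%), against 14.2% of tested genes. CCAAT boxes were common in both classes, in 12 of 19 (63.2%) and 13 of 14 (92.9%), against 43.4%. Both a CCAAT box and a CHR stood in 10 of 14 mitosis promoters, which include Cdk1, Ccnb2, Plk1, Aurka, Cdc20 and Top2a, against 7.09% of tested genes. Mcm2 and Cdc45 were the 2 replication genes with that pair. These matches describe letters, not bound sites.

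The libraries summed to between 16408622 and 19142185 expected counts, and the 40 genes held from 89 to 14578 expected counts per gene and library. Sqle itself held 70.4, 66.8 and 77.1 CPM in shSQLE replicates 1, 2 and 5, against 146, 151 and 148 CPM in shControl replicates 1, 4 and 5. CPM are counts scaled to library size and to a further scaling factor for each library (TMM). Its group means were 71.4 ± 5.24 CPM in shSQLE and 148 ± 2.71 CPM in shControl (SD, n = 3 each), a level of 48.2% of shControl with no overlap. The log2 fold change of Sqle was -1.05 (SE 0.17), but its adjusted p was 0.99964 with edgeR's quasi-likelihood test and 8.83e-05 with DESeq2, so the edgeR threshold of 0.05 was not passed by the targeted gene. No gene of the 13268 tested passed it, and 413 had an unadjusted p under 0.05. DESeq2 called 6 genes, and edgeR called 31 when shSQLE replicate 1 was left out. Melanocyte markers were high in every library, with a summed level of 15591 to 18288 CPM over 10 genes in shSQLE and 14126 to 16535 CPM in shControl. The labels do not say whether replicates are separate animals, so the p-values speak only of the spread among these 6 libraries, which may be technical in part. No pair of libraries agreed within sampling noise, and the summed level of 10 skeletal muscle markers ranged from 34.2 to 1700 CPM within shSQLE and from 15.7 to 177 CPM within shControl.

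None of the 40 genes passed the adjusted threshold, where 0% of all genes passed, and the adjusted p of each was 0.99964. None had an unadjusted edgeR p under 0.05, against 3.11% of all genes tested (1.49% higher in shSQLE and 1.62% lower). DESeq2 also called none of the 40, where it called 0.0453% of all genes, and gave 1 of them, Mcm2, an unadjusted p under 0.05 (0.0262), against 3.56% of all genes. By value alone, 30 of 40 genes were higher in shSQLE (75%), against 47.4% of all genes. Those were 17 of 22 replication genes, whose log2 fold changes had a median of 0.13, and 13 of 18 mitosis genes, whose median was 0.19, beside a median of -0.016 over all genes. Leaving out shControl replicate 1 gave medians of 0.090 for replication and 0.091 for mitosis genes, and leaving out shControl replicate 4 gave 0.21 for replication and 0.27 for mitosis genes. Every 95% interval of the 40 included 0, and the median SE was 0.22, against 0.27 for all genes. Groups did not overlap for 3 genes, Mcm2, Mcm4 and Bub1b, all higher in shSQLE (7.5% of 40, against 3.10% of all genes). With the TMM factors undone, only Mcm2 of these genes kept this separation. By counts over library totals, shSQLE replicate 1 lay below shControl replicate 1 for both Mcm4 and Bub1b. For no gene did shSQLE lie wholly below shControl, against 3.35% of all genes. In bulk tumours a different share of dividing cells and a different amount of these RNAs per cell cannot be told apart.

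**Figure D1:**
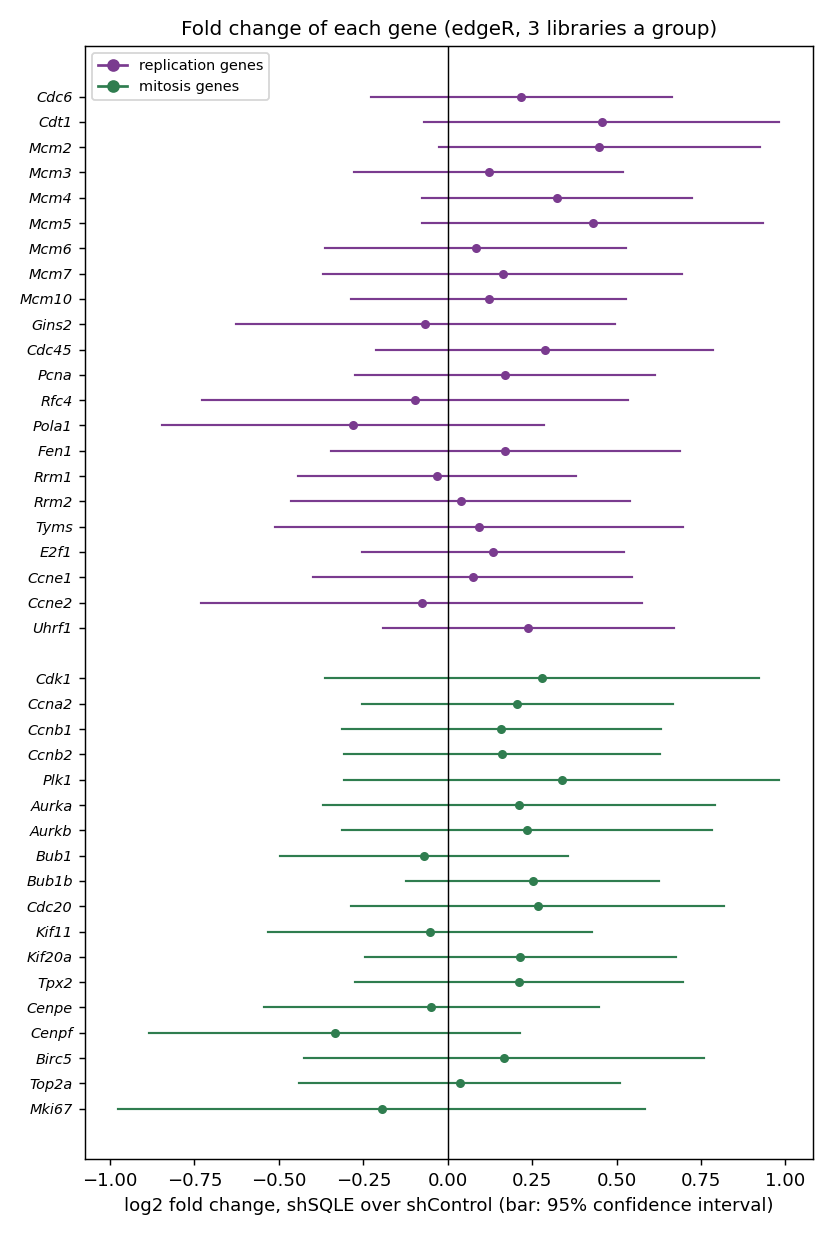
Log2 fold change (shSQLE over shControl, x axis) of each replication and mitosis gene (rows), with points for the edgeR estimate and bars for the 95% interval (3 libraries a group). All 40 intervals cross 0, 30 points lie right of it, and Mcm2, Cdt1 and Mcm5 lie farthest right.

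Levels between genes can be compared only per length, and TPM (transcript level scaled by length and library, from the effective length of each gene in the table) was used for that. The same effective length served in every library, so the trends on length described below are not removed from TPM. Averaged over the 6 libraries, Cdk1 was the most abundant of the 40 at 398 TPM, then Pcna at 267, Mcm2 at 222, Birc5 at 201 and Rrm2 at 198 TPM. By group, Cdk1 averaged 429.8 ± 58.0 TPM in shSQLE and 367 ± 73.4 TPM in shControl (SD, n = 3 each). Least abundant were Ccne2 at 3.42 TPM, Pola1 at 4.83, Cenpf at 5.10 and Cenpe at 9.49 TPM. The 6 MCM subunits form a ring in equal numbers, yet their RNA levels were unequal. Mcm2 stood at 222 TPM, while Mcm7, Mcm5, Mcm6 and Mcm3 lay between 110.0 and 119 TPM and Mcm4 at 36.1 TPM. Mcm2 averaged 253 ± 46.6 TPM in shSQLE and 191 ± 12.9 TPM in shControl, and Mcm4 averaged 39.6 ± 9.97 TPM in shSQLE and 32.6 ± 3.04 TPM in shControl (SD, n = 3 each), so the gap between these 2 genes exceeded the spread over libraries in both groups.

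**Figure D2:**
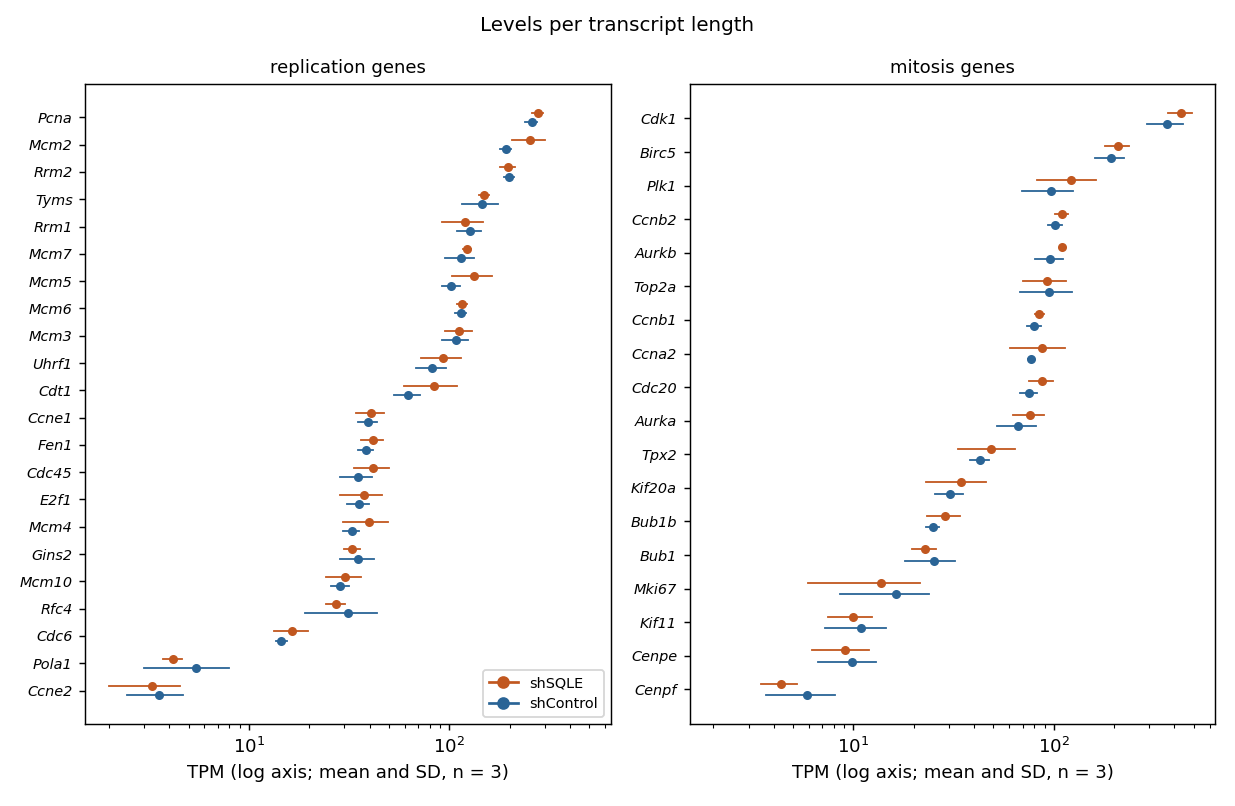
Level of each of the 40 genes in TPM (x axis, log scale) in shSQLE and shControl, as mean and SD over 3 libraries, with replication and mitosis genes in separate panels. Cdk1 (398 TPM) and Pcna (267 TPM) top their panels.

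By role, the licensing factors and the MCM helicase had the largest median fold changes of the replication class. Its largest single values were those of Cdt1, Mcm2, Mcm5 and Mcm4, while the other genes of these roles lay below Cdc45. Mcm2 held 666, 735 and 804 CPM in shSQLE replicates 1, 2 and 5, against 475, 561 and 579.7 CPM in shControl replicates 1, 4 and 5. All 3 shSQLE libraries were above all 3 shControl libraries, and shControl replicate 1 was lowest. The log2 fold change was 0.45 (SE 0.21), with a 95% interval of -0.027 to 0.93 and an unadjusted edgeR p of 0.0616. An exact two-sided permutation test gave 0.1, the least that it can give with 3 libraries a group. Mcm4, another subunit of the ring, held 111, 137 and 127 CPM in shSQLE, against 93.8, 101 and 105 CPM in shControl. Its groups did not overlap either, although the lowest shSQLE library was close to the highest shControl library. With the TMM factors undone they overlapped. Mcm4 stood at 0.32 (SE 0.18) on the log2 scale, with an unadjusted edgeR p of 0.101. For Mcm5 the values were 249, 290.0 and 367 CPM in shSQLE, against 192, 229 and 252 CPM in shControl. Here shSQLE replicate 1 lay just under shControl replicate 5, so the groups overlapped, and the log2 fold change was 0.43 (SE 0.22) with an unadjusted p of 0.0865.

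The other 3 subunits had smaller values, with log2 fold changes of 0.16 (SE 0.23) for Mcm7, 0.12 (SE 0.18) for Mcm3 and 0.083 (SE 0.20) for Mcm6. All 6 MCM genes were higher in shSQLE by value, with a median of 0.24. Averaged over the 6 as log2 CPM centred on each gene's mean, the MCM level was 0.088, 0.087 and 0.22 in shSQLE replicates 1, 2 and 5, against -0.31, -0.088 and 0.0022 in shControl replicates 1, 4 and 5. The shSQLE libraries all lay above the shControl libraries on this scale, with shControl replicate 1 the farthest below. With the TMM factors undone, shSQLE replicate 1 lay about level with shControl replicate 5. Each of the other roles given below, of both classes, overlapped between groups on the centred scale with TMM factors. Cdt1, which loads the ring and is destroyed after S phase starts, held 119.9, 167 and 167 CPM in shSQLE, against 84.3, 117 and 129 CPM in shControl. Its shSQLE replicates 2 and 5 were the highest libraries and shControl replicate 1 the lowest, while shSQLE replicate 1 lay among the shControl values. The log2 fold change of Cdt1 was the largest of the 40 at 0.46 (SE 0.23), with a 95% interval of -0.071 to 0.98 and an unadjusted edgeR p of 0.0817. Cdc6, the loader's ATPase partner, held 44.6, 49.2 and 49.3 CPM in shSQLE, against 34.3, 49.0 and 39.8 CPM in shControl. While shControl replicates 1 and 5 were below the shSQLE range, shControl replicate 4 was inside it, and the log2 fold change was 0.22 (SE 0.20).

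Among the factors that switch the helicase on, Cdc45 held 68.2, 72.7 and 66.3 CPM in shSQLE, against 40.8, 61.1 and 67.9 CPM in shControl. The shControl replicate 1 library stood apart below the other 5, which were alike, with a log2 fold change of 0.29 (SE 0.22), or 0.099 without that library. Mcm10 had 0.12 (SE 0.18) and Gins2, a subunit of the GINS complex, had -0.066 (SE 0.25) on the same scale. At the fork, Pola1, the catalytic subunit of the priming polymerase, held 21.3, 19.4 and 20.4 CPM in shSQLE, against 33.8, 21.7 and 18.7 CPM in shControl. Its direction was the reverse of most replication genes, since shControl replicate 1 was the highest library and the other 5 were within a narrow band. The log2 fold change of Pola1 was -0.28 (SE 0.25), with an unadjusted edgeR p of 0.291. The sliding clamp Pcna had 0.17 (SE 0.20), the flap nuclease Fen1 had 0.17 (SE 0.23) and the clamp loader subunit Rfc4 had -0.096 (SE 0.28). The nucleotide enzymes lay near 0, with 0.094 (SE 0.27) for Tyms, 0.038 (SE 0.22) for Rrm2 (-0.019 when scaled by library size alone) and -0.032 (SE 0.18) for Rrm1. These 3 make thymidylate and deoxyribonucleotides for the fork.

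Of the G1/S group, Uhrf1, which brings DNA methylation to newly copied strands, held 248, 297 and 301 CPM in shSQLE, against 245, 223 and 249 CPM in shControl. Replicates 2 and 5 of shSQLE were above all other libraries, while shSQLE replicate 1 was just below the highest shControl library. Uhrf1 stood at 0.24 (SE 0.19) on the log2 scale, with an unadjusted edgeR p of 0.241. The transcription factor E2f1 had 0.13 (SE 0.17), and the cyclins that activate CDK2 had 0.075 (SE 0.21) for Ccne1 and -0.077 (SE 0.29) for Ccne2. By role, median log2 fold changes were 0.34 for licensing (2 genes), 0.24 for the MCM ring (6), 0.12 for helicase activation (3), 0.037 for fork enzymes (4), 0.038 for nucleotide supply (3) and 0.10 for G1/S control (4). Ccne2, Mcm7, Rfc4, Fen1 and Gins2 had expected counts that were not whole in at least 1 library, so some of their reads may be shared with other genes.

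**Figure D3:**
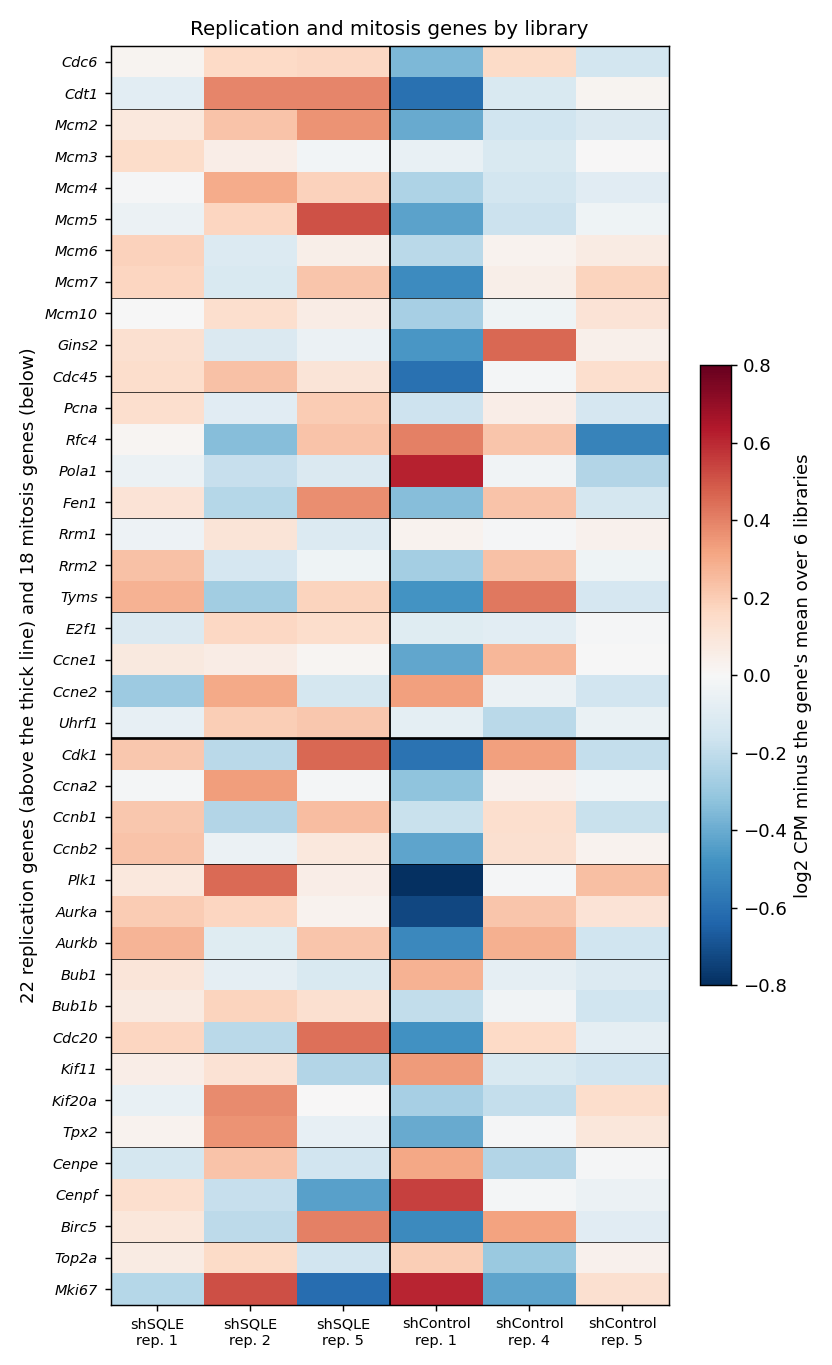
Level of each of the 40 genes (rows) in each library (columns, shSQLE left of shControl), as log2 CPM minus the gene's mean over the 6 libraries. The shControl replicate 1 column is lowest for 26 genes and highest for 9.

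In the mitosis class, Bub1b, the checkpoint kinase-like protein BUBR1 that holds cells until chromosomes attach, had the smallest p. Bub1b held 88.2, 95.2 and 91.9 CPM in shSQLE replicates 1, 2 and 5, against 73.4, 82.4 and 75.4 CPM in shControl replicates 1, 4 and 5. All shSQLE libraries were above all shControl libraries, with group means of 91.8 ± 3.50 CPM in shSQLE and 77.1 ± 4.74 CPM in shControl (SD, n = 3 each). With the TMM factors undone, shSQLE replicate 1 fell just below shControl replicate 1. The log2 fold change was 0.25 (SE 0.16), with a 95% interval of -0.12 to 0.63, an unadjusted edgeR p of 0.161 and an exact permutation p of 0.1. Its checkpoint partner Bub1 stood at -0.070 (SE 0.19) on the log2 scale. Cdc20, which turns on the anaphase-promoting complex once the checkpoint is met, held 132, 101 and 159.5 CPM in shSQLE, against 83.9, 131 and 112 CPM in shControl. The groups overlapped widely, with shSQLE replicate 5 highest and shControl replicate 1 lowest, and the log2 fold change was 0.27 (SE 0.24).

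Of the mitotic kinases, Plk1, the Polo kinase of mitotic entry and the spindle, held 206, 267 and 202 CPM in shSQLE, against 111, 193 and 229.9 CPM in shControl. Again shControl replicate 1 was far below the other 5 libraries, and shControl replicate 5 exceeded 2 of the shSQLE libraries. Plk1 had a log2 fold change of 0.34 (SE 0.28), with a 95% interval of -0.31 to 0.98, and of 0.089 without shControl replicate 1. Aurkb, the kinase of the chromosomal passenger complex, had 0.24 (SE 0.24) and Aurka, the centrosome kinase, had 0.21 (SE 0.26). Cdk1, the kinase that drives mitosis, held 276, 205 and 327 CPM in shSQLE, against 158, 299 and 209 CPM in shControl. Its values ranged widely in both groups and overlapped, and the log2 fold change was 0.28 (SE 0.28) with an unadjusted edgeR p of 0.35. Without shControl replicate 1 it was 0.086, and without shControl replicate 4 it was 0.56. Ccna2, the S and G2 cyclin, held 196, 249.8 and 196 CPM in shSQLE, against 159, 203 and 195 CPM in shControl. Replicate 2 of shSQLE was the highest and shControl replicate 1 the lowest, with the other 4 nearly level, and the log2 fold change was 0.21 (SE 0.20). Cyclin B genes had 0.16 (SE 0.21) for Ccnb1 and 0.16 (SE 0.21) for Ccnb2.

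Of the spindle genes, Kif20a, the kinesin of the central spindle, held 75.6, 102 and 78.7 CPM in shSQLE, against 65.3, 68.9 and 86.8 CPM in shControl. Replicate 2 of shSQLE stood above the rest and the others overlapped, with a log2 fold change of 0.22 (SE 0.20). Tpx2, which activates Aurora A on the spindle, held 149, 187 and 139 CPM in shSQLE, against 110.2, 145 and 156 CPM in shControl. Only shControl replicate 1 lay clearly below the others, and the log2 fold change was 0.21 (SE 0.21). Kif11, the kinesin that pushes the spindle poles apart, had -0.052 (SE 0.21), and 0.13 without shControl replicate 1. At the kinetochore, Cenpf held 32.1, 25.6 and 21.6 CPM in shSQLE, against 42.8, 28.9 and 28.2 CPM in shControl. It was the most negative of the 40 at -0.33 (SE 0.24), with a 95% interval of -0.88 to 0.22, and shControl replicate 1 was its highest library. The kinetochore motor Cenpe had -0.048 (SE 0.22) and Birc5, the survivin subunit of the passenger complex, had 0.17 (SE 0.26). Top2a, which untangles sister chromatids, had 0.035 (SE 0.21), and -0.035 when scaled by library size alone.

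Mki67, whose protein is the Ki-67 proliferation marker, was also lower by value in shSQLE, at -0.19 (SE 0.34). Its 95% interval was the widest of the 40, at -0.98 to 0.59. Its libraries, shown here by a choice made after their values were seen, held 107, 180.0 and 82.4 CPM in shSQLE, against 192, 93.7 and 138 CPM in shControl. The 2 highest libraries were shControl replicate 1 and shSQLE replicate 2, one from each group. By role, median log2 fold changes were 0.18 for cyclins and Cdk1 (4 genes), 0.24 for mitotic kinases (3), 0.25 for checkpoint and anaphase genes (3), 0.21 for spindle motors and assembly (3), -0.048 for centromere and passenger genes (3) and -0.080 for Top2a with Mki67. Kif20a and Ccna2 had expected counts that were not whole in all 6 libraries.

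Replication and mitosis genes were then set against each other library by library, as the mean of centred log2 CPM over each class. Replication genes stood at 0.047, 0.041 and 0.13 in shSQLE replicates 1, 2 and 5, against -0.21, 0.043 and -0.056 in shControl replicates 1, 4 and 5. The groups overlapped, since shControl replicate 4 lay level with the lower shSQLE libraries. Mitosis genes stood at 0.082, 0.090 and 0.015 in shSQLE, against -0.18, 0.011 and -0.023 in shControl. Here the groups did not overlap, by the narrow gap between shSQLE replicate 5 and shControl replicate 4. With the TMM factors undone they overlapped, with shSQLE replicates 1 and 5 below shControl replicate 1. Replication minus mitosis was -0.035, -0.048 and 0.119 in shSQLE, against -0.034, 0.032 and -0.033 in shControl. The mean of that balance was 0.012 ± 0.093 in shSQLE and -0.012 ± 0.038 in shControl (SD, n = 3 each), a difference of 0.023 that is smaller than either SD. The medians of the fold changes differed by -0.058 (replication minus mitosis), which is opposite in sign to the difference of the means. Leaving out 1 library at a time gave -0.065 to 0.039 for the medians, so no shift of one class against the other was resolved.

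**Figure D4:**
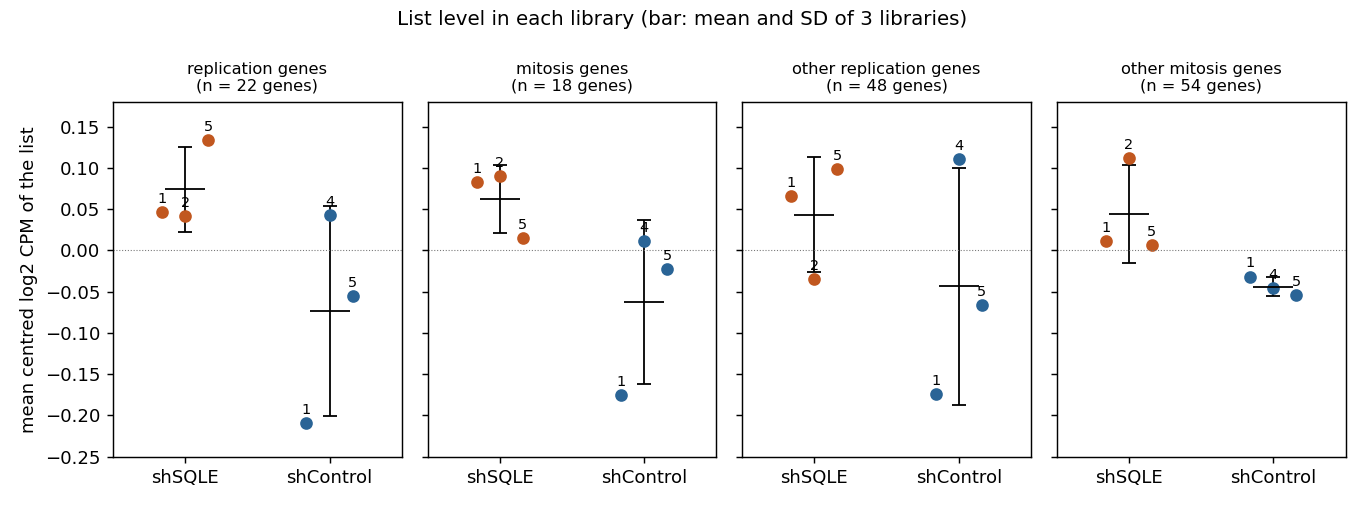
Mean level of 4 gene lists (panels) in each library as log2 CPM centred on each gene's mean, with shSQLE left of shControl, points for libraries, numbered by replicate, and bars for the group mean and SD over 3 libraries. The lowest replication and mitosis point is shControl replicate 1 (-0.21 and -0.18) in the panels of the 22 and 18 genes, and shControl replicate 4 lies among or next to the shSQLE points there.

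For 26 of the 40 genes shControl replicate 1 was the lowest of the 6 libraries, 15 of 22 for replication and 11 of 18 for mitosis, and for 9 it was the highest. Those 9 were Rfc4, Pola1, Ccne2, Bub1, Kif11, Cenpe, Cenpf, Top2a and Mki67. The largest TMM factor (1.12) was that of shControl replicate 1, and it lowers every scaled value of this library. With the factors undone, its class mean was not the lowest for replication or for mitosis genes. Without this library 31 of 40 genes were higher in shSQLE against 50.4% of all genes, and 13 of the 40 had the opposite sign to that in all 6 libraries. The summed levels of endothelial and fibroblast markers were highest in this library. Over 8 endothelial markers, all tested, the summed level was 76.3 to 91.0 CPM in shSQLE and 67.0 to 167 CPM in shControl, with the maximum in shControl replicate 1. The 9 fibroblast markers, of which 8 were tested, summed to 57.3 to 405 CPM in shSQLE and 135 to 536 CPM in shControl, again highest in that library, although the mean of centred log2 CPM over the tested fibroblast markers was highest in shControl replicate 5 (0.97, against 0.88 in replicate 1). The 10 macrophage markers summed to 91.5 to 478 CPM in shSQLE and 159 to 533 CPM in shControl, and were highest in shControl replicate 5. Other lists differed more between groups by value, without passing the threshold. All 8 endothelial markers (median log2 fold change -0.51), all 8 tested fibroblast markers (-0.54) and 9 of 10 macrophage markers (-0.27) were lower in shSQLE. The mean centred level of each of these lists overlapped between groups. All 9 tested skeletal muscle markers (median log2 fold change 3.10) and all 6 erythroid markers (1.11) were higher in shSQLE. All 4 tested adipocyte markers (-3.22) and all 9 tested mitochondrial transcripts (-0.33) were lower. Summed muscle CPM were highest in shSQLE replicate 5 (1700), while shControl replicate 4 (177) exceeded shSQLE replicates 1 and 2 (34.2 and 81.3). Erythroid sums were highest in shSQLE replicate 1 (28654), against 5732 and 3402 in shSQLE replicates 2 and 5 and 2854 to 7646 in shControl. Mitochondrial sums were lowest in shSQLE replicate 5 (9693) but highest of all in shSQLE replicate 2 (30219). Adipocyte sums were 12.2 in shControl replicate 4, within the shSQLE range of 11.3 to 23.1. Of 10 melanocyte markers 8 were higher, with a median of 0.13. No marker of the cell type lists named here was at 0 in all libraries, and their part in the levels of the 40 genes was not tested.

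Transcript length also ordered the libraries. The 40 transcripts run from 872 bases for Cdk1 to 10061 bases for Mki67, as the table gives length. Spearman's rho between length and centred level over the 40 genes was -0.57, 0.49 and -0.51 in shSQLE replicates 1, 2 and 5, against 0.56, -0.71 and 0.082 in shControl replicates 1, 4 and 5. Over all 13268 genes it was -0.33, 0.39 and -0.38 in shSQLE, against 0.48, -0.40 and -0.085 in shControl. These are descriptions, as genes of a library share its RNA and depth. Each group thus held libraries with short and with long transcripts high, and over all genes shControl replicate 1 had the strongest trend. Its median centred level ran from -0.19 in the bin of the shortest genes (median 804 bases) to 0.48 in that of the longest (5795 bases). Of the 9 genes for which it was the highest library, all but Rfc4 and Ccne2 are among the 13 longest of the 40.

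**Figure D5:**
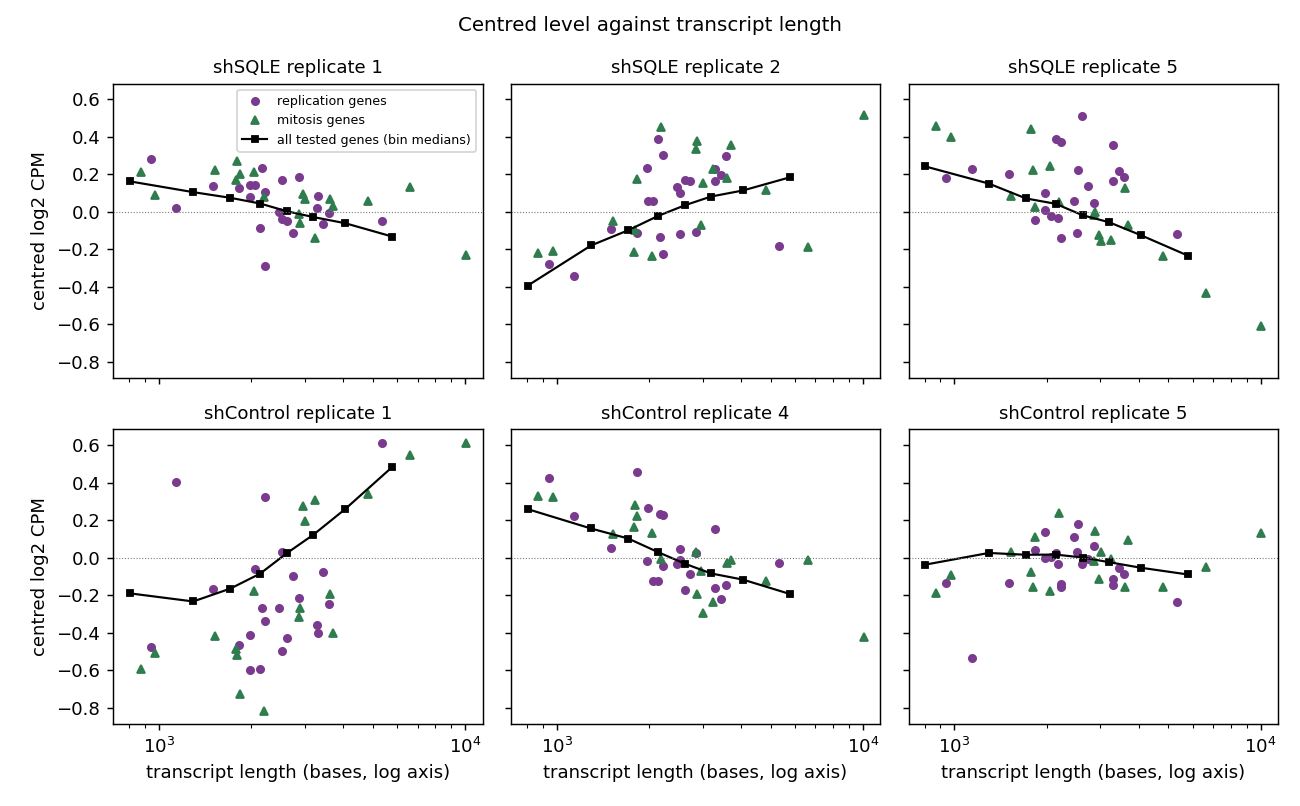
Centred log2 CPM (y axis) against transcript length in bases (x axis, log scale) in each library (panels), with points for the 40 genes and a line for medians of all tested genes in 8 bins of length. Lines climb in shSQLE replicate 2 and shControl replicate 1 and descend in shSQLE replicates 1 and 5 and shControl replicate 4.

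Split by length, the 13 shortest genes had a median of 0.17 on the log2 scale with 11 higher in shSQLE, the 14 of middle length had 0.15 with 12 higher, and the 13 longest had 0.035 with 7 higher. A smooth trend on length was then removed within each library before the same test, an alternative chosen after seeing the data. The biological coefficient of variation over all genes was 27.4% with the trend removed and 30.4% as counted. With it removed, 32 of 40 genes were higher in shSQLE, against 52.8% of all genes. Groups did not overlap for 6 genes, all higher (Mcm2, Mcm4, Mcm5, Pcna, Uhrf1 and Bub1b), against 4.82% of all genes. Mcm2 stood at 0.48 and was the 1 gene of the 40 with an unadjusted edgeR p under 0.05 (0.0369, against 4.10% of all genes), but its adjusted p was 0.966. Mki67 stood at 0.031 and Kif11 at 0.068, both reversed in sign, and Cenpf at -0.14 and Pola1 at -0.11. With length and GC content removed together, 37 of 40 were higher, against 53.3% of all genes, and 8 did not overlap, against 5.15%. Mcm2 at 0.42 and Mcm4 at 0.45 were then the 2 genes with an unadjusted edgeR p under 0.05, against 4.08%. The lowest library of the 40 genes was then shControl replicate 1 for 30 of them, against 26 as counted.

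Further genes of the same pathways were described in the same way. Of 48 further replication genes (ORC, polymerases, clamp loaders, chromatin assembly and the like), 39 were higher in shSQLE by value, the median log2 fold change being 0.093, and none passed the threshold. The 3 with the smallest p were Orc4 at -0.44 (SE 0.20), Chaf1b, of the chromatin assembly factor behind the fork, at 0.33 (SE 0.22) and Pold2, of DNA polymerase delta, at 0.34 (SE 0.25). Orc4, a subunit of the origin recognition complex, was lower in every shSQLE library than in every shControl library. Of 54 further mitosis genes, 38 were higher with a median of 0.098, and none passed. Mad2l1, the checkpoint protein MAD2, had 0.41 (SE 0.19), the kinesin Kif18b 0.37 (SE 0.24) and Fbxo5, the inhibitor of the anaphase-promoting complex in S and G2, 0.33 (SE 0.18). As a list, these 54 stood at 0.012, 0.11 and 0.0071 in shSQLE replicates 1, 2 and 5, against -0.032, -0.045 and -0.055 in shControl replicates 1, 4 and 5, as mean centred log2 CPM. With the TMM factors undone the groups overlapped, with shControl replicate 1 above shSQLE replicates 1 and 5. On the centred scale with TMM factors they did not overlap, and shControl replicate 1 was not the lowest library. By summed CPM over these 54 it was, at 3222, against 3849 and 3990 in shControl replicates 4 and 5. The 48 further replication genes overlapped between groups, at 0.066, -0.035 and 0.099 in shSQLE and -0.17, 0.11 and -0.066 in shControl. There shControl replicate 1 was the lowest library. Mad2l1 averaged 133 ± 23.1 CPM in shSQLE and 99.8 ± 2.81 CPM in shControl (SD, n = 3 each), with no overlap. The same E2F core stood in 52.6% of 38 further replication promoters and 18.8% of 48 further mitosis promoters, and a CHR in 15.8% and 64.6%.

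Of 23 tested cell cycle transcription factors, 16 were higher in shSQLE, with a median of 0.10, and none passed the threshold. E2f5 had 0.55 (SE 0.22) with an unadjusted edgeR p of 0.0365 and groups that did not overlap. It was the 1 gene of the 23 with a p under 0.05, against 3.11% of all genes. It was also the 1 without overlap (4.35% of 23, against 3.10% of all genes higher). The growth factor target Myc had 0.67 (SE 0.34) and the E2F repressor E2f7 0.75 (SE 0.39). Myc held 66.4, 151 and 87.9 CPM in shSQLE, against 55.0, 49.2 and 87.7 CPM in shControl, and only shSQLE replicate 2 lay well above the others. Of 10 tested G1 cyclins, CDKs and CDK inhibitors, 5 were higher with a median of 0.024. Cdk2, the S phase kinase, had 0.47 (SE 0.20) and an unadjusted edgeR p of 0.0434, Ccnd1, the D-type cyclin of G1, had -0.30 (SE 0.17) and the inhibitor Cdkn1b had -0.38 (SE 0.22). Cdk2 held 494, 532 and 573 CPM in shSQLE, against 394, 353 and 411 CPM in shControl, with no overlap. It was the 1 gene of the 10 with a p under 0.05, against 3.11% of all genes. Of the 10, 2 were higher with no overlap (against 3.10% of all genes) and 1 was lower with no overlap (against 3.35%). Cdk2 overlaps the pigment gene Pmel on the opposite strand in the GENCODE annotation of GRCm38, and Pmel averaged 5261 ± 211 CPM in shSQLE and 4422 ± 635 CPM in shControl (SD, n = 3 each). Whether the counting used strand is not given in the sources used here, and without strand reads from the overlap of these 2 genes cannot be told apart. Of 11 checkpoint genes, 7 were higher with a median of 0.050, and the 3 smallest p-values belonged to the clamp subunit Rad9a at 0.55 (SE 0.26), the stress kinase Atr at -0.40 (SE 0.26) and the CDK phosphatase Cdc25a at -0.22 (SE 0.20). Expected counts of Orc4, Ccnd1, Rad9a and Atr were not whole in most or all libraries.

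The promoter letters were last set beside the fold changes of the 40 genes, as a description with no test. Replication genes with an E2F core had a median of 0.14 on the log2 scale (10 genes) and those without one 0.13 (9 genes). Mitosis genes with a CHR had 0.19 (10 genes) and those without one 0.055 (4 genes), and single genes of both kinds spread over more than that gap. Plk1, Bub1b and Cenpf show it, each with a CHR just past the start in the stretches printed above, and with log2 fold changes of 0.34, 0.25 and -0.33.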

How the data were processed

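RNA sequencing of 6 B16F10 tumour libraries was analysed from 1 table of expected counts per gene and library that the authors deposited. The submitters' processing notes name the tools FastQC, STAR, RSEM and DESeq2 and the build GRCm39, without versions. No source used here states whether strand was used in counting. Expected counts can divide reads that match several genes, and in each library 11.4% to 12.7% of the nonzero values were fractional. The table also holds 1 length and 1 effective length per gene, which the authors deposited and which served for TPM and the length trend. Replicate groups were taken from the titles. The 40 genes, the other gene lists and the tests were chosen with earlier results of these data known.

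Expected counts were rounded to whole numbers, and filterByExpr (minimum count 10, minimum total 15) left 13268 genes holding 99.88% to 99.93% of each library. edgeR 4.0.16 in R 4.3.3 was used with TMM factors (0.928 to 1.12), robust quasi-likelihood fits on all 6 libraries, group as the only term, and Benjamini-Hochberg adjustment over all genes with a threshold of 0.05. The SE is the log2 fold change divided by the square root of F. Centred levels are log2 CPM with a prior count of 2. No 2 libraries agreed within sampling noise. The alternatives were other scalings, filters and tests (DESeq2 1.42.0, limma 3.58.1 voom), robust=FALSE, an adjusted p of 0.1, a block for the replicate number, and leaving out each library. Trends on length, and on length with GC content (GENCODE vM21 transcripts, 13256 genes), were removed by loess as added alternatives. Fits were tested on simulated counts. Members named with all libraries are Sqle and the 8 genes with the smallest p of each class, and 3 genes are named from each other list. Python 3.11.15 with matplotlib 3.10.9 drew the figures.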

Additional observations from a re-analysis of the deposited data

How the results depend on the processing

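None of the 40 genes passed the adjusted threshold under any alternative run, and between 28 and 37 of them were higher in shSQLE. Scaling by DESeq2 size factors or upper quartile, both other filters, voom and robust=FALSE turned no sign among the 40. With library size alone, Rrm2 stood at -0.019 and Top2a at -0.035. DESeq2 called 6 genes in all and gave 1 of the 40 an unadjusted p under 0.05. With the replicate number as a block (replicate block), 41 genes passed, 5 higher and 36 lower, with 4 of the 40 at an unadjusted p under 0.05, where 8.25% of all genes were. Those 4 differed in direction, with Mki67 at -0.79 and Cdk1 at 0.73, Cdc20 at 0.59 and Aurkb at 0.58. Under that replicate block the replication median was 0.25, the difference of medians 0.039, Gins2 0.25, Rfc4 0.19 and Top2a -0.16. Only numbers 1 and 5 are shared, so shSQLE replicate 2 and shControl replicate 4 stand alone in their blocks and add nothing to that group effect. The block fit thus compares shSQLE replicates 1 and 5 with shControl replicates 1 and 5 alone. Libraries with the same number correlated at -0.13 and 0.070 in their deviations, so the numbers were not taken to pair libraries.

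Leaving out 1 library at a time gave 0 to 31 genes past the threshold, the 31 without shSQLE replicate 1 (21 higher and 10 lower), and 0 to 1 of the 40 at an unadjusted p under 0.05. That 1 gene also came without shSQLE replicate 1, where 6.57% of all genes had such a p, against 1.92% to 4.23% in the other 5 fits. The replication median ranged from 0.090 to 0.21, the mitosis median from 0.091 to 0.27 and their difference from -0.065 to 0.039. Signs turned for 16 of the 40 genes. Their ranges were -0.014 to 0.30 for Mcm7, -0.27 to 0.19 for Gins2, -0.33 to 0.097 for Rfc4, -0.44 to 0.014 for Pola1, -0.090 to 0.023 for Rrm1, -0.076 to 0.18 for Rrm2, -0.091 to 0.38 for Tyms and -0.086 to 0.25 for Ccne1. They were -0.27 to 0.082 for Ccne2, -0.030 to 0.39 for Aurka, -0.14 to 0.064 for Bub1, -0.14 to 0.13 for Kif11, -0.18 to 0.11 for Cenpe, -0.016 to 0.40 for Birc5, -0.087 to 0.15 for Top2a and -0.57 to 0.094 for Mki67. Of the genes shown by library whose sign held, the ranges were 0.089 to 0.57 for Plk1, 0.086 to 0.56 for Cdk1, 0.099 to 0.44 for Cdc45, 0.11 to 0.37 for Cdc6, 0.10 to 0.43 for Cdc20, 0.082 to 0.28 for Ccna2, 0.070 to 0.35 for Kif20a, 0.076 to 0.31 for Tpx2 and -0.49 to -0.11 for Cenpf. They were 0.30 to 0.60 for Cdt1, 0.27 to 0.55 for Mcm5, 0.37 to 0.52 for Mcm2, 0.25 to 0.40 for Mcm4, 0.19 to 0.33 for Uhrf1 and 0.22 to 0.31 for Bub1b.

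After seeing the data, trends were removed as well. With the length trend removed, 1 of the 40 had an unadjusted edgeR p under 0.05, where 4.10% of all genes had one. Kif11 then stood at 0.068 and Mki67 at 0.031. With length and GC trends removed, 2 of the 40 had such a p, where 4.08% of all genes did. Values were then 0.00050 for Pola1, 0.038 for Rrm1, 0.040 for Ccne2, 0.13 for Bub1, 0.17 for Kif11, 0.051 for Cenpe and 0.064 for Mki67. The causes of these shifts were not tested. The 95% intervals of the 40 genes reach 0.98 for Cdt1 and -0.98 for Mki67, which is the precision that these libraries give.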
